A study of Mus musculus with 18 samples.

Results

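The genes described here, 10 in number, are used to follow the transition of epithelial cells to a mesenchymal state, and were read in bulk RNA sequencing of the mouse RPE (retinal pigment epithelium), a single sheet of pigmented cells that serves the photoreceptors. They are the cadherins Cdh1, Cdh2 and Cdh3, the repressors of epithelial genes Snai1, Snai2, Zeb1, Zeb2 and Twist1, the intermediate filament gene Vim and the smooth muscle actin gene Acta2. They were chosen by name, and all 10 of 10 were found by symbol among the 21859 rows of the count table. All 10 passed the filter on low counts that left 15944 genes for testing.

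The 18 libraries fall into 4 groups. The Young group (7 libraries) and the Old group (4 libraries) were RPE of young and of aged mice with no vector named. The Old-Control group (3 libraries) was aged RPE given AAV2-tTA, an adeno-associated virus vector carrying the tetracycline-controlled transactivator. The Old-OSK group (4 libraries) was aged RPE given AAV2-tTA;TRE-OSK, so that both vector groups received tTA and Old-OSK also received OSK (Oct4, Sox2 and Klf4) under the TRE promoter that tTA acts on. No strain, age in months, sex, dose, time after injection or promoter of tTA was used here, and whether a library pooled several mice is not stated in the sources used here. Nothing in the labels says that libraries of a group came from separate animals, so p-values measure the spread between these libraries, which may in part be technical.

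In an epithelium, E-cadherin (Cdh1) holds neighbouring cells together at adherens junctions. SNAI, ZEB and TWIST factors are transcriptional regulators known to repress E-cadherin and other epithelial genes, and in a full transition the cells lose it and gain N-cadherin (Cdh2), vimentin and often smooth muscle actin. RPE is an unusual epithelium: it keeps P-cadherin (Cdh3) and N-cadherin at its junctions and vimentin in its cytoskeleton as part of its ordinary state. Transition of RPE cells is studied mostly in scarring membranes of the retina and in cultured RPE.

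Library totals ran from 18104828 to 32348136 counts. Values below are CPM, counts scaled to a common library size after TMM normalisation, and log2 fold changes are from edgeR's quasi-likelihood fit of all 18 libraries, with p-values adjusted by the Benjamini-Hochberg method over all genes tested. A gene was called when that adjusted p was under 0.05. The OSK label was checked on the vector's genes: Pou5f1 (Oct4) stood at 50.1 to 97.4 CPM in the Old-OSK libraries against 0.338 to 1.06 in Old-Control, and Sox2 at 70.0 to 115 against 2.80 to 15.9, and both were called. Klf4 stood at 155 to 432 against 24.2 to 33.6 CPM and was not called (3.43, SE 0.85, adjusted p 0.0631), and it reached 216 CPM in an Old library. Of the 18 libraries, 6 carry an unexplained letter M in their names: 3 of Young, 2 of Old-Control, 1 of Old-OSK and none of Old. The 10 RPE markers (Rpe65, Best1, Rlbp1 and others) summed to between 15741 and 65484 CPM. Rod photoreceptor RNA was also present, with 8 genes summing to between 144 and 17450 CPM. The highest rod sum was in Old-Control replicate 2, where Old-Control replicates 1 and 3 had 3181 and 1474 CPM. The RPE sum of Old-Control replicate 2 was 20635 CPM, against 62276 and 53747 in replicates 1 and 3. RNA of a keratin-expressing surface epithelium was present as well. For it 10 genes were chosen after the data were seen (Krt5, Krt14, Krt12, Trp63 and others, known from cornea and conjunctiva). They summed to between 208 and 30758 CPM. That sum exceeded the RPE sum in Old-OSK replicate 1 (30758 against 30023 CPM) and Old-OSK replicate 2 (21143 against 15741). In bulk samples, fewer cells of a type and less RNA per cell cannot be told apart.

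Per kilobase of exon the 10 genes differed widely in level. Vim and Acta2 stood highest, at 66.2 and 64.8 CPM per kb as a mean of the 4 group means, followed by Cdh3 at 39.0. Cdh1 stood at 13.8, Cdh2 at 4.95, and Zeb1 and Zeb2 at 2.16 and 2.15. The level per kb was 1.19 for Snai2, 0.645 for Twist1 and 0.567 for Snai1. By this mean P-cadherin was the most abundant of the 3 cadherins per length, and the ZEB genes the most abundant of the 5 transcriptional repressors. Both orders turned in the Old-OSK mean, where Cdh1 stood at 26.9 CPM per kb against 25 for Cdh3, and Snai2 at 2.07 against 1.85 for Zeb1 and 1.80 for Zeb2. Old-OSK replicate 4 differed, with 34.1 CPM of Cdh1 against 104 of Cdh3, and 1.46 of Snai2 against 23.3 of Zeb1 and 37.2 of Zeb2. The Snai2 order also rests on division by exon length (2021 bases for Snai2, 10266 for Zeb1 and 19942 for Zeb2). Before that division the Old-OSK means were 4.18, 19.0 and 36.0 CPM.

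**Figure D1:**
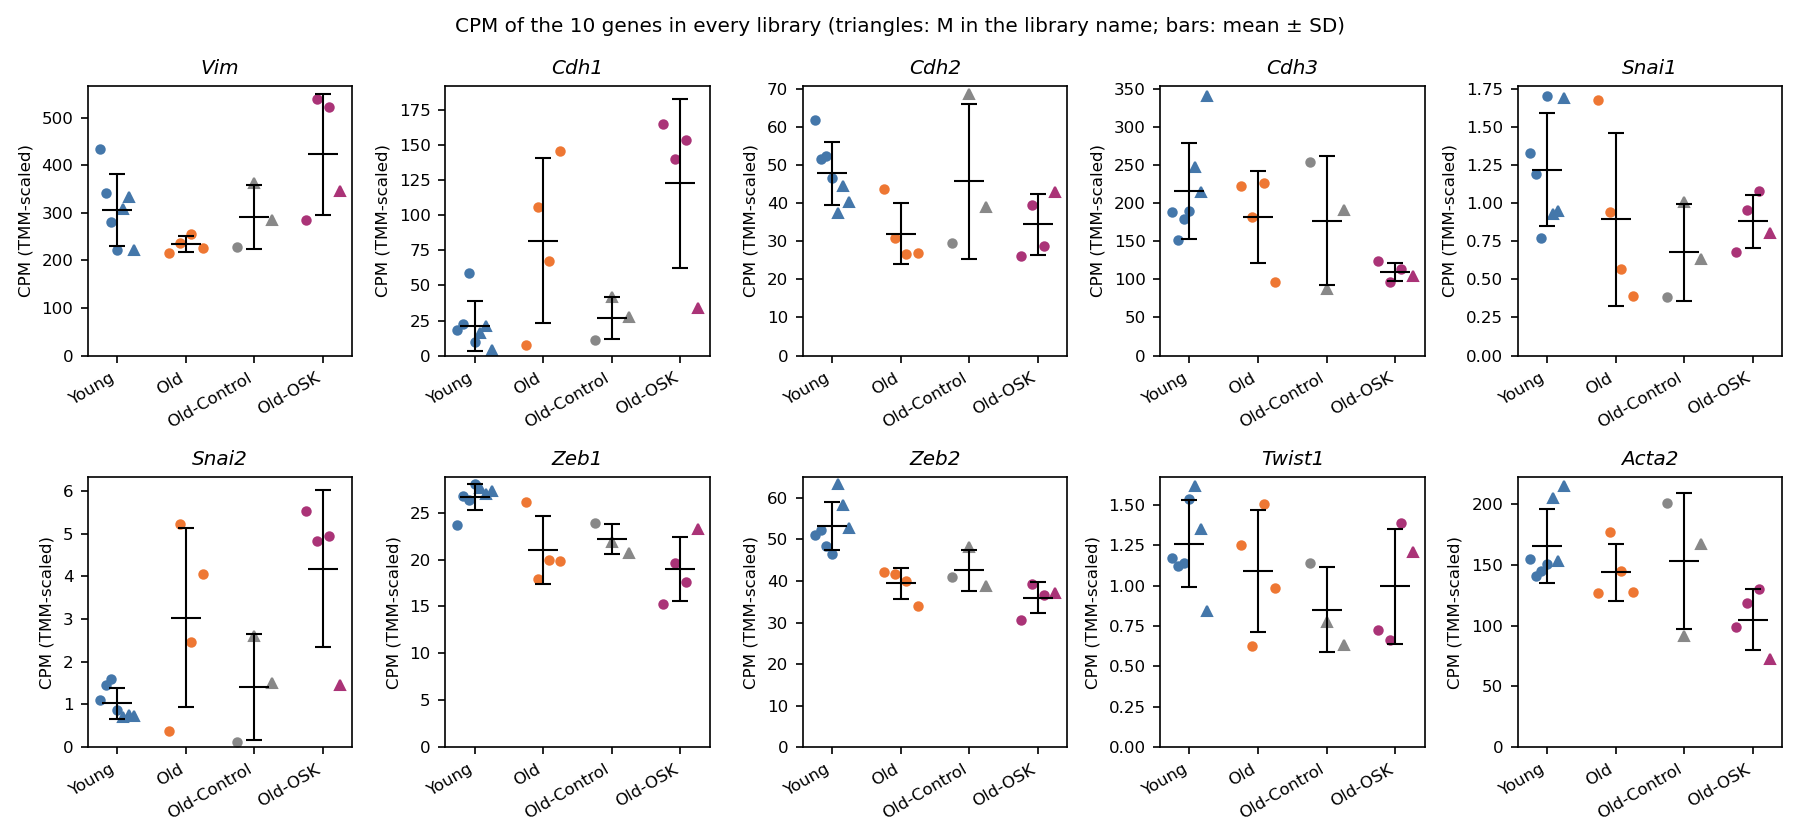
CPM after TMM scaling (vertical axes, each starting at 0) of the 10 genes in every library of the 4 groups. Circles are libraries without M in the name and triangles those with it, and black bars give the mean ± SD. Zeb2 is the gene whose Young libraries (46.5 to 63.3 CPM) all lie above the Old ones (34.1 to 42.2), and Cdh1 spans 3.77 to 165 CPM.

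Among the 10 genes, 1 differed between Old and Young by the test. Zeb2 fell in Old RPE by 0.43 on the log2 scale (SE 0.10), which is 1.35-fold. The share of all tested genes called in that comparison was 9.56%, with 5.40% higher and 4.16% lower. None of the 10 was called higher. Of the 10 fitted log2 fold changes 8 were negative, with a median of -0.30 against 0.00 over all tested genes. At an unadjusted p under 0.05 there were 5 of the 10 (Cdh1, Cdh2, Snai2, Zeb1 and Zeb2), where 29.0% of all tested genes lay under that limit. Zeb2 was also the 1 gene of the 10 whose Old and Young libraries did not overlap, as was the case for 9.30% of tested genes.

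Between Old-OSK and Old-Control none of the 10 was called by edgeR's quasi-likelihood test, and 0.728% of all tested genes were, 0.408% higher and 0.32% lower. Cdh1, Vim and Acta2, 3 of the 10, lay under an unadjusted p of 0.05, beside 26.3% of all tested genes. DESeq2 called 0 of the 10, beside 1603 of the 15944 tested genes. The median of the 10 log2 fold changes was 0.00 against -0.03 over all tested genes. In none of the 10 did the libraries of these groups stand apart, while 12.4% of tested genes did. Between Old-Control and Old no gene in the table was called (0.0%) and none of the 10 had an unadjusted p under 0.05, beside 3.74% of all tested genes. The groups overlapped in all 10, while 3.18% of tested genes did not overlap. This comparison shares its Old libraries with the first and its Old-Control libraries with the second.

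**Figure D2:**
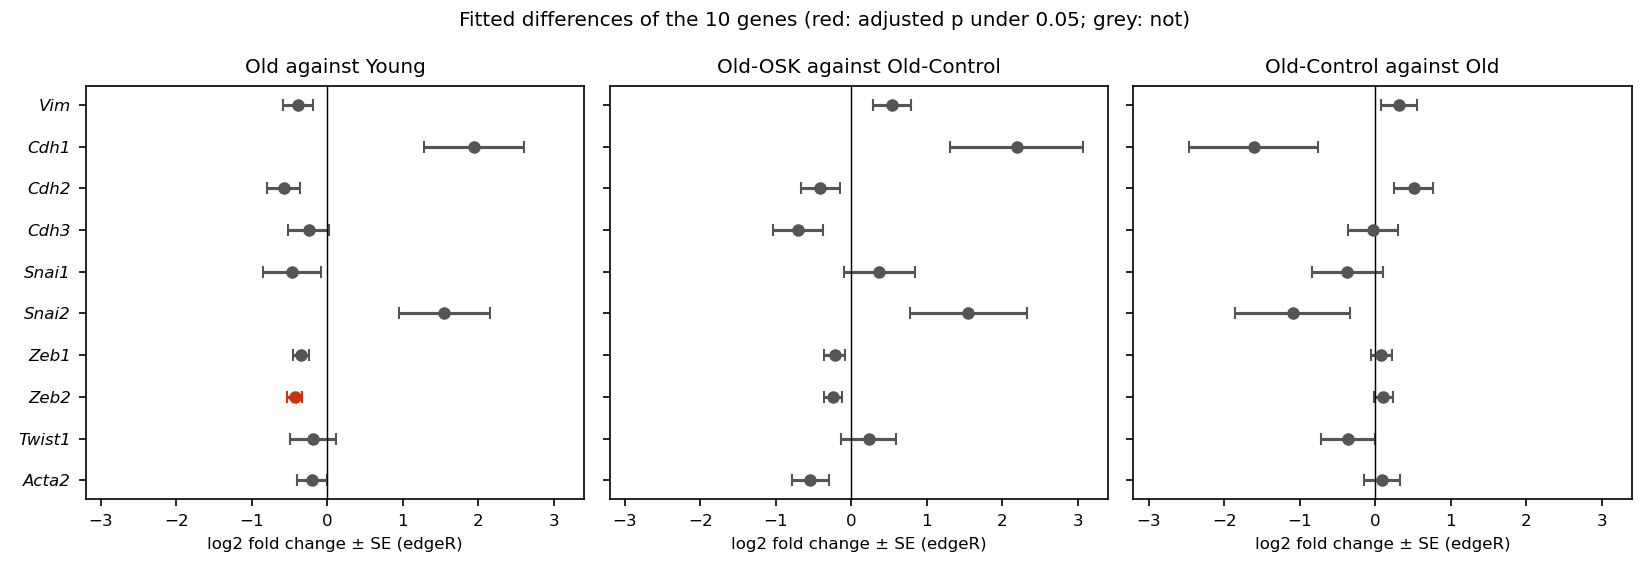
Fitted log2 fold changes of the 10 genes with their standard errors (horizontal axes) in the 3 comparisons, red where the adjusted p was under 0.05. Zeb2 in Old against Young, at -0.43, is the red point, and Cdh1 and Snai2 have the widest errors, 0.66 and 0.60 in that comparison.

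Zeb2 and Zeb1 encode zinc finger and homeobox proteins that bind the E-box in the promoters of Cdh1 and other epithelial genes. Zeb2 lies on the minus strand at chr2:44983632-45117395 (GRCm38, GENCODE M21). Zeb2 stood at 46.5, 52.3 and 63.3 CPM as the lowest, median and highest of the 7 Young libraries. The Old libraries held 42.2, 41.8, 39.9 and 34.1 CPM, the Old-Control libraries 40.9, 48.2 and 38.7, and the Old-OSK libraries 30.7, 39.2, 36.7 and 37.2. Every library of Old lay below every library of Young. Group means were 53.2 ± 5.81 CPM in Young (SD, n = 7), 39.5 ± 3.73 in Old (n = 4), 42.6 ± 4.95 in Old-Control (n = 3) and 36.0 ± 3.68 in Old-OSK (n = 4), and the adjusted p of Old against Young in edgeR's quasi-likelihood test was 0.0166. Old-OSK against Old-Control gave a log2 fold change of -0.24 (SE 0.12, adjusted p 0.203) and Old-Control against Old 0.11 (SE 0.12, adjusted p 0.921).

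The Zeb2 call did not hold in every fit. The Young libraries with M in the name held 63.3, 58.3 and 52.7 CPM of Zeb2 and those without it 51.0, 52.3, 48.4 and 46.5. When M was a covariate, Zeb2 gave -0.36 (SE 0.10) with an adjusted p of 0.0536, and within the libraries without M it was -0.32 (SE 0.10) with an adjusted p of 0.121. Without Old replicate 4, the lowest Old library, it was -0.37 with an adjusted p of 0.0809, while leaving out any other single library of these groups kept the call. Sums of marker lists named for other cells moved too, in both directions. The sum of 6 fibroblast markers was 151 to 325 CPM in Young and 107 to 190 in Old. That of 5 melanocyte markers was 2808 to 5250 against 2538 to 3276, and that of 6 Müller glia markers 2426 to 2792 against 2015 to 2401. Other lists were higher in Old. The sum of 8 rod markers was 144 to 2787 CPM in Young and 1921 to 6956 in Old. That of 8 endothelium markers was 62.9 to 230 against 82.8 to 296. Of 8 macrophage and immune markers 6 were called higher in Old. Such sums need not come from those cells alone: Sox10, on the melanocyte list, had an r of 0.972 with Cdh3, which followed the RPE markers. The part of other cells in the Zeb2 difference was not tested. With the surface epithelium markers' mean log2 CPM as a covariate the Zeb2 value was -0.35 (adjusted p 0.108), with that of the rod markers -0.41 (adjusted p 0.0655), and with that of the RPE markers -0.46 (adjusted p 0.0218).

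Zeb1 had a difference of the same sign that did not pass the test. It stood at 23.7, 27.0 and 28.1 CPM as the lowest, median and highest of the Young libraries, and at 26.2, 17.9, 20 and 19.8 CPM in Old. In all, 3 Old libraries lay below all of Young and Old replicate 1 lay within their range. The log2 fold change was -0.35 (SE 0.11) with an adjusted p of 0.0609. Without Old replicate 1, Zeb1 was called at -0.47 (adjusted p 0.0137), and DESeq2 called it with all libraries (adjusted p 0.0444). Zeb1 held 23.9, 21.9 and 20.7 CPM in Old-Control and 15.3, 19.6, 17.6 and 23.3 in Old-OSK, groups that overlapped (-0.22, SE 0.14, adjusted p 0.319). Zeb1 and Zeb2 followed each other over the 18 libraries, with a Pearson r of log2 CPM of 0.798 and a Spearman rho of 0.814.

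The 250 bases before a transcription start were searched for the SNAI and ZEB E-box, CAGGTG or CACCTG on the strand shown, each being the reverse complement of the other. RefSeq windows of GRCm38.p6 were at hand for 5 of the 10 genes (Vim, Snai1, Zeb2 with 4 starts, Twist1 and Acta2), 8 windows in all. Among these 8, 1 held the motif, as did 17.2% of the 32851 windows of the table. The window of the most upstream Zeb2 start is shown because Zeb2 is the called gene, and that of Snai1 because it is the one with the motif. Capitals mark the E-box, whose first base in Snai1 lies at -126 from the start. The Zeb2 window is chr2:45117443-45117692, minus strand, and the Snai1 window chr2:167537945-167538194, plus strand.
Zeb2: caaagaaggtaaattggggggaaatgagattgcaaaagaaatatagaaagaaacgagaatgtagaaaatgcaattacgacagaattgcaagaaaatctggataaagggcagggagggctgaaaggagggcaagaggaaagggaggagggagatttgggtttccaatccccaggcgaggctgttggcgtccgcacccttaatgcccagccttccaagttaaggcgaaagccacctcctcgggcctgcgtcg
Snai1: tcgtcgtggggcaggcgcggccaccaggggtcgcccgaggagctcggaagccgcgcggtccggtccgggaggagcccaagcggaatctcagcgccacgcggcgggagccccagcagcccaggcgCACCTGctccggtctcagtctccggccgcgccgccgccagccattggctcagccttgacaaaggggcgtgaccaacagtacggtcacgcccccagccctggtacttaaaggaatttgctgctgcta
No E-box was found in any of the 4 Zeb2 windows. A match describes these letters and does not show binding.

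Cdh1 (E-cadherin, chr8:106603351-106670246 of GRCm38) and Snai2 varied most among the 10, over 43.8-fold and 43.4-fold from the lowest to the highest library. Young libraries held 3.77, 18 and 58.6 CPM as the lowest, median and highest. The Old libraries held 7.66, 106, 67.8 and 146 CPM, the Old-Control libraries 11.4, 41.6 and 27.7, and the Old-OSK libraries 165, 140, 154 and 34.1. Of the 4 Old libraries, 3 lay above all of Young, and Old replicate 1 lay below the Young median. Likewise 3 of 4 Old-OSK libraries lay above all of Old-Control, and Old-OSK replicate 4, the one with M in its name, lay within them. Group means were 21.3 ± 17.7 CPM in Young (SD, n = 7), 82.0 ± 59.1 in Old (n = 4), 26.9 ± 15.1 in Old-Control (n = 3) and 123 ± 60.3 in Old-OSK (n = 4).

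The fitted Cdh1 difference was 1.94 (SE 0.66, adjusted p 0.0666) for Old against Young and 2.19 (SE 0.88, adjusted p 0.136) for Old-OSK against Old-Control, both on the log2 scale and neither called. Old-Control against Old gave -1.61 (SE 0.86, adjusted p 0.900). Single libraries decided the age result: Cdh1 was called without Old replicate 1 (2.32, adjusted p 0.0184) or without Young replicate 3 (2.44, adjusted p 0.0229). DESeq2 also called it, at 1.94 (adjusted p 0.0375). With the replicate number as a block, over the 3 numbers that Old-OSK and Old-Control share, Cdh1 gave 2.67 (SE 0.43) and the adjusted p was 0.0499. The same 6 libraries without the block gave 2.50 (adjusted p 0.0332), and a fit of all libraries with M as a covariate 1.54 (SE 1.00, adjusted p 0.433).

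Cdh1 tracked the surface epithelium markers across all 18 libraries. The summed CPM of those 10 markers ran from 208 to 6232 in Young (median 1231), from 1029 to 21421 in Old (median 7539), from 1368 to 5347 in Old-Control (median 3193) and from 3884 to 30758 in Old-OSK (median 20283). Krt5, a basal cell keratin, ran from 52.3 to 1913 CPM in Young and from 1252 to 8581 in Old-OSK. Krt12, a keratin of corneal epithelium, ran from 0.984 to 85.3 CPM in Young and from 74.5 to 3096 in Old-OSK. None of the 10 was below 1 CPM in every library of any group.

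Against the log2 of that sum, the Pearson r of log2 Cdh1 was 0.982 and the Spearman rho 0.979 over 18 libraries. The r was 0.977 without the 2 libraries farthest from the median and 0.990 in the 7 Young libraries alone. The points share library preparation, and the list was chosen after the data were seen. Cdh1 CPM per 1000 CPM of the markers spanned 3.37-fold over all libraries, from 5.37 to 18.1, where Cdh1 itself spanned 43.8-fold. With the markers' mean log2 CPM as a covariate the Cdh1 difference was 0.07 (SE 0.32, adjusted p 0.940) for Old against Young and 0.12 (SE 0.37, adjusted p 0.978) for Old-OSK against Old-Control.

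**Figure D3:**
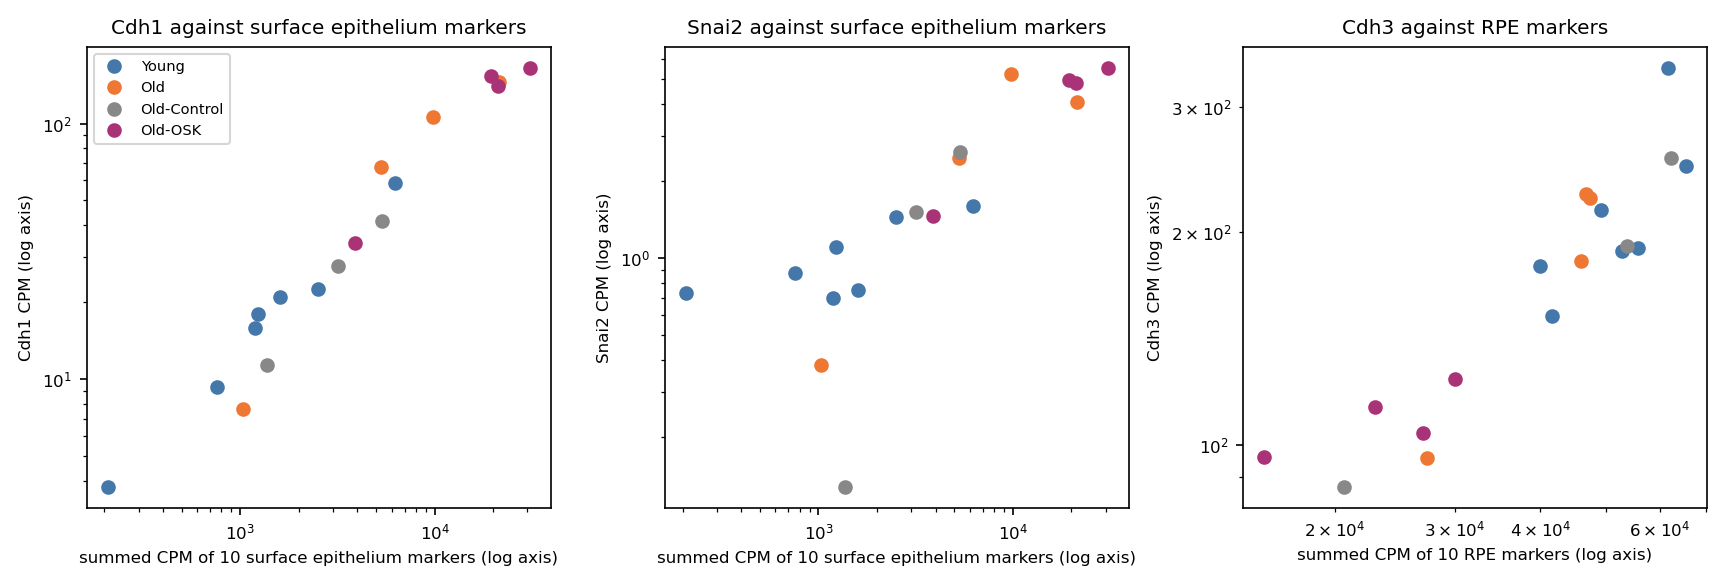
Cdh1 and Snai2 CPM against the summed CPM of the 10 surface epithelium markers, and Cdh3 CPM against the summed CPM of the 10 RPE markers, all on log axes, 1 point per library coloured by group. Over all 18 libraries Cdh1 follows the surface epithelium sum (r of log2 values 0.982) and Cdh3 the RPE sum (r 0.922). Within groups r was computed for Young alone (0.990 for Cdh1 and 0.766 for Cdh3).

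Snai2 (Slug, chr16:14705852-14709385 of GRCm38) is a SNAI factor known for repressing E-cadherin and also expressed in basal cells of stratified epithelia. In Young it stood at 0.695, 0.871 and 1.59 CPM as the lowest, median and highest library. Old libraries held 0.383, 5.23, 2.46 and 4.06 CPM, Old-Control libraries 0.127, 2.60 and 1.51, and Old-OSK libraries 5.52, 4.82, 4.94 and 1.46. The same 3 Old libraries and the same 3 Old-OSK libraries that were high in Cdh1 were high in Snai2. The lowest value rests on 3 counts, in Old-Control replicate 1, and the highest on 114.

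Snai2 gave a log2 fold change of 1.55 (SE 0.60, adjusted p 0.0999) for Old against Young, and the fit for Old-OSK against Old-Control was also 1.55 (SE 0.77, adjusted p 0.211). Without Old replicate 1 the age difference was called (1.91, adjusted p 0.0290). Snai2 followed Cdh1 with an r of 0.881 and a rho of 0.940 over the 18 libraries, and the surface epithelium sum with an r of 0.836. Its ratio to that sum was not steady as that of Cdh1 was. Snai2 CPM per 1000 CPM of the surface epithelium markers spanned 37.8-fold over all libraries, where Snai2 itself spanned 43.4-fold. In Young the ratio spanned 13.8-fold and Snai2 2.29-fold. With that marker score as a covariate the Snai2 values were 0.13 (SE 0.58) and 0.22 (SE 0.63). The repressor and the cadherin were thus high in the same libraries.

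The other SNAI and TWIST genes were near the lower end of what these depths measure. Snai1 (chr2:167538195-167542814) ran from 0.382 to 1.70 CPM over all libraries, on 9 to 43 counts. Twist1 (chr12:33957671-33959829) ran from 0.627 to 1.62 CPM, on 12 to 48 counts. The groups overlapped in both genes in every comparison. Old against Young gave -0.47 (SE 0.38) for Snai1 and -0.19 (SE 0.30) for Twist1, and Old-OSK against Old-Control gave 0.37 (SE 0.47) and 0.23 (SE 0.36), with adjusted p between 0.441 and 0.759. Differences of the size of these errors could not be told from none, and larger ones can go uncalled too. In the same fit Cdh1 at 1.94 (SE 0.66) was not called for Old against Young.

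Cdh3 (P-cadherin, chr8:106510891-106557297) is the neighbour of Cdh1, with 46053 bases between them on the same strand. Young stood at 152, 190 and 341 CPM as the lowest, median and highest, Old at 223, 182, 226 and 95.9, Old-Control at 254, 87.0 and 191, and Old-OSK at 124, 96.2, 113 and 104. Every Old-OSK library lay below every Young one, as was so for Acta2, Zeb1 and Zeb2. Old-OSK was not tested against Young, and the share of all genes so apart was not counted. Old-Control replicate 2 lay below all of Old-OSK. Cdh3 and Cdh1 had an r of -0.721 over the 18 libraries.

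Cdh3 followed the RPE markers instead, with an r of 0.922 and a rho of 0.905 with their summed CPM, which was 40035 to 65484 in Young, 27278 to 47427 in Old, 20635 to 62276 in Old-Control and 15741 to 30023 in Old-OSK. Per 1000 CPM of RPE markers Cdh3 spanned 1.79-fold. The fitted log2 fold change was -0.25 (SE 0.27, adjusted p 0.580) for Old against Young. For the OSK comparison it was -0.70 (SE 0.33, adjusted p 0.190), which without Old-Control replicate 2 was -1.05 and called (adjusted p 0.0298). With the RPE marker score as a covariate the signs turned, to 0.09 (SE 0.19) for Old against Young and 0.12 (SE 0.26) for Old-OSK against Old-Control.

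Cdh2 (N-cadherin), which replaces E-cadherin in a classical transition, had a negative fitted difference in Old RPE that did not pass the test. Its Young libraries stood at 37.3, 46.5 and 61.9 CPM as the lowest, median and highest, and Old at 43.7, 30.8, 26.7 and 26.9. Here 3 of 4 Old libraries lay below all of Young. The log2 fold change was -0.58 (SE 0.22, adjusted p 0.0945). Without Old replicate 1 it was -0.76 and called (adjusted p 0.0389). It was called too with the rod marker score as a covariate (-0.88, adjusted p 0.0248) and with the RPE marker score (-0.76, adjusted p 0.0430). In the vector groups Cdh2 held 29.5, 68.5 and 39.0 CPM in Old-Control and 26.2, 39.4, 28.8 and 43.0 in Old-OSK, and the groups overlapped (-0.41, SE 0.26, adjusted p 0.335). That value was -0.02 without Old-Control replicate 2.

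Vim (chr2:13573927-13582826) encodes vimentin, the intermediate filament of mesenchymal cells that RPE also makes. Young libraries held 221, 309 and 434 CPM as the lowest, median and highest. Old libraries held 216, 237, 256 and 227 CPM, Old-Control 228, 362 and 284, and Old-OSK 284, 539, 523 and 346. Old was the tightest group, with a mean of 234 ± 17.2 CPM (SD, n = 4), against 306 ± 74.9 in Young (n = 7). Old-OSK was the highest by mean, at 423 ± 127 CPM (n = 4) against 292 ± 67.3 in Old-Control (n = 3). Its log2 fold change was -0.39 (SE 0.20, adjusted p 0.219) in the age comparison and 0.54 (SE 0.25, adjusted p 0.179) in the OSK comparison.

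Acta2 (alpha smooth muscle actin, chr19:34241090-34255590) marks contractile myofibroblasts and smooth muscle. Young libraries held 141, 153 and 215 CPM as the lowest, median and highest, Old 127, 177, 145 and 128, Old-Control 201, 91.8 and 167, and Old-OSK 99.3, 119, 130 and 72.6. All 4 Old-OSK libraries lay below all of Young, a pair of groups that was not tested, and Old-Control replicate 2 lay below 3 of the 4. The log2 fold change was -0.20 (SE 0.20, adjusted p 0.528) for Old against Young and -0.54 (SE 0.24, adjusted p 0.163) for Old-OSK against Old-Control, and the latter was -0.84 (adjusted p 0.0142) without Old-Control replicate 2.

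Levels of other smooth muscle genes were mixed. Tagln (transgelin) was at most 1.37 CPM in any library, while Myh11, the smooth muscle myosin heavy chain, ran from 4.49 to 78.6 CPM, with medians of 17.8 in Young and 44.5 in Old-OSK. Acta2 had an r of -0.161 with the summed level of 8 pericyte and smooth muscle markers, which ran from 149 to 237 CPM in Young and from 159 to 253 in Old-OSK, and an r of 0.768 with the RPE markers. Acta2 and Cdh3 had an r of 0.813. With the RPE marker score as a covariate the Acta2 differences were -0.01 (SE 0.19) for age and -0.15 (SE 0.27) for OSK.

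In the order of group means, Old-OSK was highest for Vim, Cdh1 and Snai2, and Young was highest for the other 7. Old-OSK was lowest for Cdh3, Zeb1, Zeb2 and Acta2, Old for Vim and Cdh2, Old-Control for Snai1 and Twist1, and Young for Cdh1 and Snai2. In each of the 10 genes every pair of groups next to each other in that order overlapped.

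For the 7 genes averaging 3 or more in log2 CPM, the other genes most like them over the 18 libraries were found among 10233 genes by the Pearson r of log2 CPM. Cdh1 was most like Klf5 (r 0.994) and Oit1 (0.988). Cdh3 was most like Sox10 (0.972) and Tex2 (0.966), Zeb2 like Zfp267 (0.933) and Lrrc75b (0.931), and Zeb1 like Trak2 (0.901). Acta2 was most like Snap23 (0.933) and Ttc9c (0.923), and Cdh2 like Ttc8 (0.925) and Hif1a (0.896). Vim had the loosest match, with Plat (0.831) and Rasa4 (0.821).

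**Figure D4:**
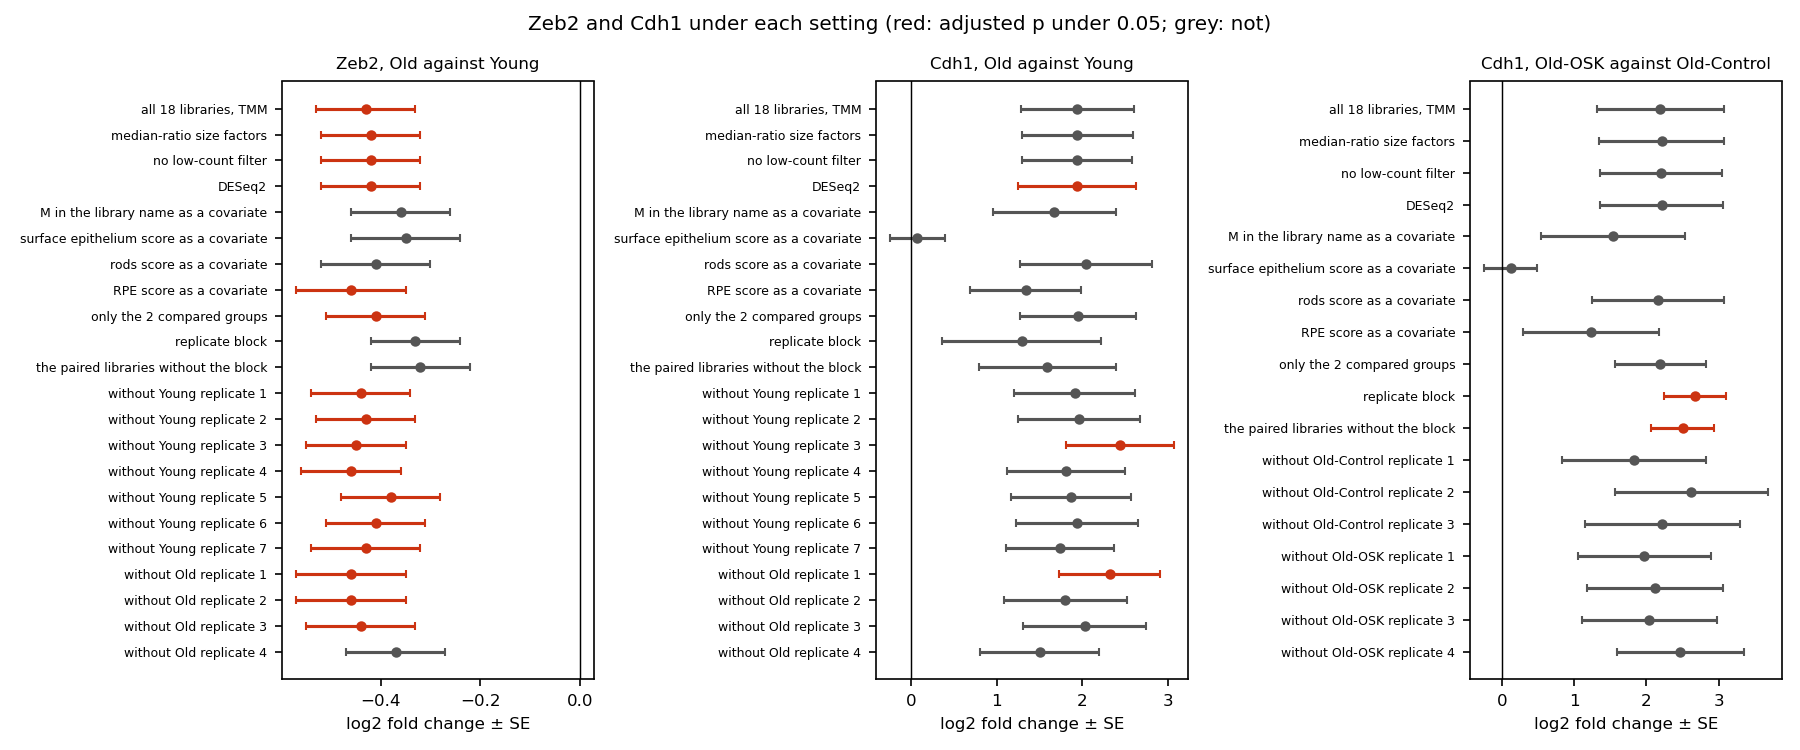
Log2 fold change with its standard error (horizontal axes) of Zeb2 and Cdh1 in Old against Young and of Cdh1 in Old-OSK against Old-Control under each setting, red where the adjusted p was under 0.05. Zeb2 stays between -0.46 and -0.32, and Cdh1 lies at 0.07 and 0.12 with the surface epithelium score as a covariate.

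Another 7 lists of further genes of the transition were read from the same fit. In Old against Young, 9.56% of all tested genes were called and 29.0% had an unadjusted p under 0.05. In Old-OSK against Old-Control these shares were 0.728% and 26.3%, and DESeq2 called 1603 genes. Among 15 catenins and epithelial state genes, all tested, 4 rose in Old against Young and none fell, with a list median of 1.38 on the log2 scale. They were Grhl2 (2.43, SE 0.66, adjusted p 0.0344) and Ovol2 (2.49, SE 0.70, adjusted p 0.0385), transcription factors that keep the epithelial state, Epcam (2.36, SE 0.65, adjusted p 0.0351), an epithelial adhesion molecule, and Jup (plakoglobin of desmosomes, 1.80, SE 0.52, adjusted p 0.0400). The surface epithelium markers, whose sums are given above, also had positive values in Old against Young in all 10, with a median of 2.30. How closely the 4 genes followed them over the libraries was not computed. With that marker score as a covariate the 4 were 0.81 (SE 0.37), 0.65 (SE 0.48), 0.91 (SE 0.35) and 0.30 (SE 0.17), and none was called. That list was chosen after the data were seen, so the fit does not show where the RNA of the 4 came from. Within the libraries without M none of the 4 was called. Without Old replicate 4 they were 1.90, 1.68, 2.05 and 1.23, again with none called. Of the 11 fits that left out a single Old or Young library, Grhl2 was called in 4, Epcam and Ovol2 in 3 each, and Jup in 2. In Old-OSK against Old-Control 13 of the 15 had positive values with a median of 1.74. There edgeR called none, with 9 at an unadjusted p under 0.05, and DESeq2 called 4. Jup stood at 338 ± 185 CPM against 73.5 ± 28.3 (SD, n = 4 and 3; 2.20, SE 0.70, adjusted p 0.0891). It was called there without Old-OSK replicate 4 (2.47, adjusted p 0.0341). With the replicate block Jup was 2.53 (adjusted p 0.0499) and Dsp, the desmosomal protein desmoplakin, 2.04 (adjusted p 0.0445). The same libraries, which leave out Old-OSK replicate 4, gave 2.50 (adjusted p 0.0263) and 2.04 (adjusted p 0.0205) without the block. Over the 10 alternative fits other than those leaving out 1 library, Jup ran from 0.53 to 2.53 and Dsp from 0.53 to 2.04. Each was called in 3 of these 10, with adjusted p up to 0.573 for Jup and 0.796 for Dsp.

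Of 20 tested mesenchymal matrix and adhesion genes (21 listed), 3 fell in Old RPE and none rose, with a median of -0.13. Sparc, a collagen-binding matrix protein, was 441 ± 78.8 CPM in Old against 926 ± 96.4 in Young (SD, n = 4 and 7; -1.07, SE 0.14, adjusted p 0.000322). Col1a2, a chain of type I collagen, was 34.4 ± 7.18 against 72.5 ± 15.2 CPM (-1.08, SE 0.18, adjusted p 0.00266), and Loxl2, a collagen cross-linking enzyme, 9.25 ± 1.70 against 15.9 ± 2.94 CPM (-0.78, SE 0.17, adjusted p 0.0125). In all 3 the groups did not overlap. Col1a2 is also one of the 6 fibroblast markers, whose sums were lower in Old. Within the libraries without M, Sparc was -0.98 and Col1a2 -1.12, both called, and Loxl2 was -0.89 with an adjusted p of 0.0529. Loxl2 also lost its call when Old replicate 4 was left out (-0.69, adjusted p 0.0626). In Old-OSK against Old-Control edgeR called none of the 20, with 7 at an unadjusted p under 0.05, and DESeq2 called 3 (Loxl2, Fap and Mmp14). Loxl2 stood at 13.1 ± 2.18 against 7.77 ± 1.36 CPM there, groups that did not overlap (0.75, SE 0.21, adjusted p 0.0720), and it was called without Old-Control replicate 2 (0.88, adjusted p 0.0234).

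Transforming growth factor beta ligands, known inducers of the transition, moved in opposite directions with age. Among 12 ligands, receptors and SMADs, all tested, 1 rose and 1 fell. Tgfb1 rose from 5.87 ± 1.14 CPM in Young to 10.4 ± 1.66 in Old (SD, n = 7 and 4; 0.82, SE 0.15, adjusted p 0.00433), and Tgfb3 fell from 31.3 ± 4.78 to 17.2 ± 3.51 CPM (-0.86, SE 0.16, adjusted p 0.00491). The Old and Young libraries did not overlap in either. Tgfb1 is also made by macrophages, and 6 of 8 macrophage and immune markers rose in Old (Cd68, Tyrobp, Aif1, C1qa, C1qb and C1qc). The median log2 fold change of the 8 was 1.96. Their summed level overlapped, at 414 to 682 CPM in Old and 447 to 654 in Young. Most of that sum was Csf1r, which was not called. Its median was 430 CPM in Old and 475 in Young, where the sum had medians of 558 and 511. The part of those cells in the Tgfb1 difference was not tested. Within the libraries without M neither ligand was called (0.71, adjusted p 0.0935 for Tgfb1, and -0.81, adjusted p 0.0632 for Tgfb3). In Old-OSK against Old-Control edgeR called none of the 12, with 5 at an unadjusted p under 0.05, and DESeq2 called 1, Tgfb1 (0.68, adjusted p 0.0109). Tgfb1 stood at 14.2 ± 1.56 against 8.94 ± 0.642 CPM without overlap (0.67, SE 0.19, adjusted p 0.0724).

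The remaining lists held few calls. Of 13 tested further transcription factors of the transition (15 listed), Sox4, a SOX family factor, fell in Old (31.0 ± 4.27 against 43.7 ± 2.76 CPM; -0.49, SE 0.13, adjusted p 0.0339), a call lost with M as a covariate (adjusted p 0.0859) and without any 1 of 7 single libraries. Id1, an inhibitor of basic helix-loop-helix factors, was not called but stood at 95.5 ± 19.4 CPM in Old-OSK against 45.2 ± 11.8 in Old-Control (1.08, SE 0.34, adjusted p 0.0901). None of 7 tested further cadherins (8 listed) and none of 11 contractile genes was called with age by edgeR or DESeq2, with 2 and 1 of them at an unadjusted p under 0.05. With age DESeq2 called 2452 of all genes. Of 7 further intermediate filament genes, Gfap, the filament of astrocytes and reactive Müller glia, fell in Old (62.4 ± 16.7 against 147 ± 55.7 CPM; -1.24, SE 0.29, adjusted p 0.0164), a call lost within the libraries without M (-1.05, adjusted p 0.172). It was also lost when Old replicate 3 or Old replicate 4 was left out (-1.13 and -1.14, with adjusted p of 0.0512 and 0.0744). Of the 84 tested genes of the 7 lists, edgeR called 11 in Old against Young, beside 9.56% of all tested genes. In Old-OSK against Old-Control edgeR called 0 of the 84, and 29 had an unadjusted p under 0.05, beside 26.3% of all tested genes. DESeq2 called 10 of the 84 there, beside 1603 of all genes. In Old-Control against Old both tools called 0 of the 84, and 4 had an unadjusted p under 0.05, beside 3.74% of all tested genes.

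**Figure D5:**
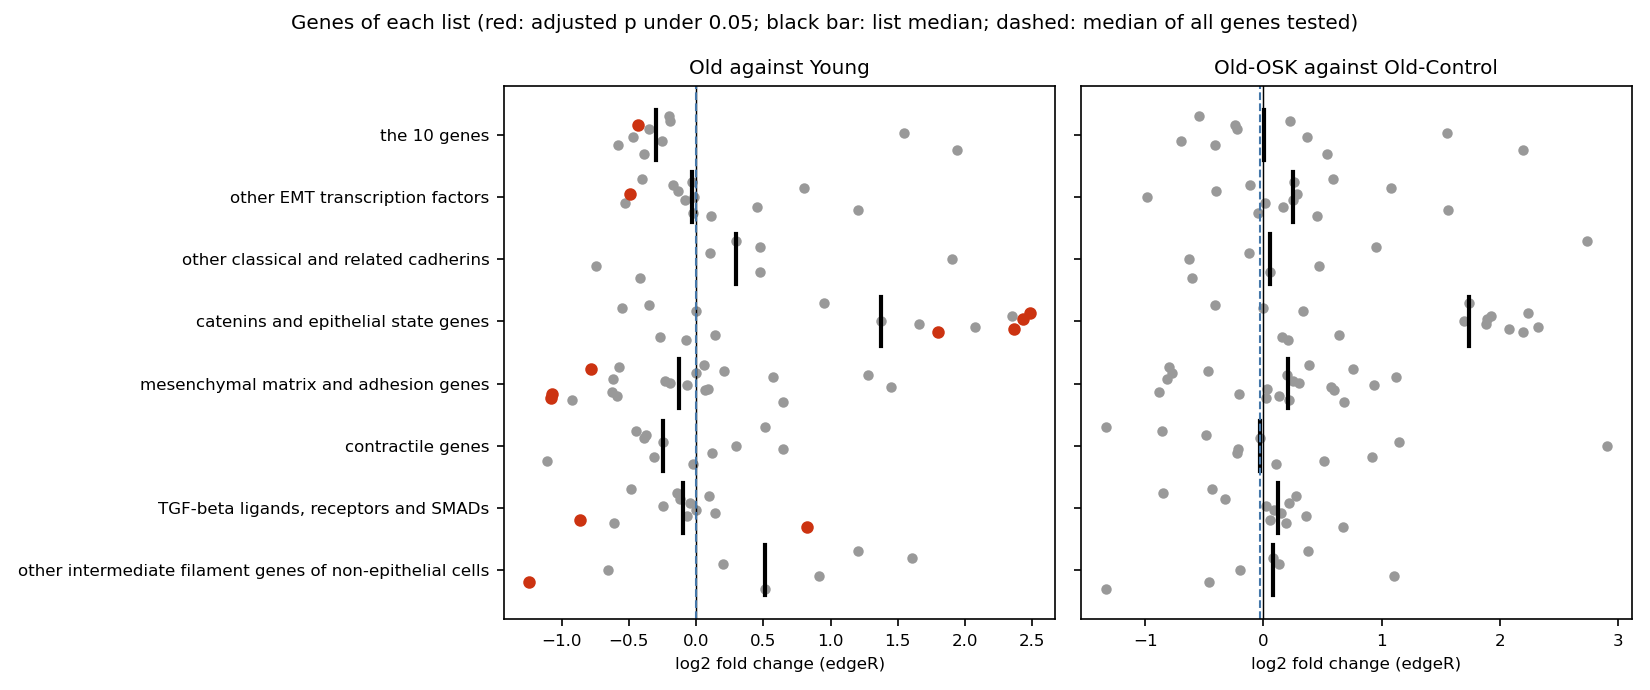
Log2 fold changes (horizontal axes) of the tested genes of each list in the age comparison (left) and the OSK comparison (right), red where the adjusted p was under 0.05, with a black bar at the list median and a dashed line at the median of all tested genes. The catenin and epithelial state list lies to the right in both panels, with medians of 1.38 and 1.74, and the right panel holds no red point.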

How the data were processed

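PolyA RNA was amplified as cDNA (SMART-Seq v4, an ultra low input method) and fragmented by transposase into Nextera XT libraries, per the labels' protocols. Raw counts per gene symbol were deposited by the authors in 1 table of 18 libraries. STAR 2.7.1a and featureCounts 1.6.2 are named in the submitters' processing notes, beside mouse and human builds with no role given. The annotation and strand setting are not given in the sources used here, so reads of Zeb2 and Zeb1 cannot be told apart from those of antisense genes that overlap their exons (Zeb2os shares 653 of 19942 exon bases of Zeb2). Of the rows 1096 were 0 throughout, and 50 rows shared 24 symbols and were kept apart.

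Counts were filtered (filterByExpr, minimum count 10, minimum total 15), scaled by TMM and fitted as 4 group means over all 18 libraries with edgeR 4.0.16 (glmQLFit, glmQLFTest; R 4.3.3), with Benjamini-Hochberg adjustment over all genes tested. The fit was tested on simulated data. SE is the size of the log2 fold change over the root of the F statistic. Correlations used log2 CPM (prior count 2), and coordinates and exon lengths came from GENCODE M21 (GRCm38). The 2 most alike libraries of a group differed by 21.2 per gene in a chi-square of counts, so none was treated as a repeat. Alternatives were median-ratio size factors, no filter, DESeq2 1.42.0, only the compared groups, M as a covariate, a replicate block and leaving out each library. Marker scores as covariates, the surface epithelium list and the blocked libraries without the block were chosen after seeing the data. In Old against Young the last are Young and Old replicates 1 to 4, which are the libraries without M. Same-numbered Old-OSK and Old-Control libraries deviated together from their group means (correlations of 0.103, 0.421 and 0.339 for numbers 1, 2 and 3), so these numbers were treated as pairs from that check alone, not from the labels. In the other comparisons the correlations were of mixed sign, at 0.197, -0.189 and 0.359 for numbers 1, 2 and 3 of Old-Control and Old. Differently numbered libraries were not compared in this way, so the check does not establish a pairing. Old-Control replicates 2 and 3 carry M and Old-OSK replicates 2 and 3 do not, so M and OSK are partly mixed in the block fit.

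The 10 genes and the lists were chosen with earlier results of these data known. Named were the 10 genes, the 3 genes of lowest p in each list and comparison (a selection of them is printed, and the third comparison is given as counts), the vector genes, called genes of a list, and the 2 genes most like each abundant one, of which 1 is not reported here. Reads were PCR-amplified with no molecular identifiers in the table, so counts give a lower limit on error. Protein sequences were not used here.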

Additional observations from a re-analysis of the deposited data

Results flagged for a closer look

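In 2 cases a library stood apart from the rest of their group by the gap to the nearest library as a share of the group's range (Dixon's ratio), among 30 groups of 4 or more libraries examined over the 10 genes. Chance flags about 1 in 20 groups. Cdh1 in Young replicate 3 was 58.6 CPM, where the other 6 Young libraries held at most 22.5. The same library had the highest surface epithelium sum of the Young group, 6232 CPM. Zeb1 in Young replicate 1 was 23.7 CPM, below the 26.4 to 28.1 CPM of the other 6.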

How the results depend on the processing

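In Old against Young 1524 genes and 1 of the 10 were called. These counts were 2452 and 3 with DESeq2 (Cdh1, Zeb1 and Zeb2), 600 and 0 with M as a covariate, 414 and 0 with the surface epithelium score, 797 and 2 with the RPE score, 479 genes with the rod score, 191 and 0 within the libraries without M, and 393 to 2140 genes and 0 to 5 of the 10 when single libraries were left out. The lowest came without Old replicate 4 and the highest without Old replicate 1. In Old-OSK against Old-Control 116 genes and 0 of the 10 were called, against 1603 genes with DESeq2, 58 with M as a covariate, 33 with the surface epithelium score, 15 with the RPE score and 2 in a fit of only these 2 groups. Leaving out single libraries gave 13 to 2881 genes and 0 to 2 of the 10, the extremes being without Old-Control replicates 1 and 2. The split there was 64 higher and 29 lower with median-ratio size factors, and 65 and 51 with TMM. The cause of these shifts was not tested.

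With the replicate block, Old against Young gave 0 genes and 0 of the 10, and Old-OSK against Old-Control 461 genes and 1 of the 10, of which 51 were among the 116. The same libraries without the block gave 990 genes and 1 of the 10. Replicate numbers were not taken to pair Old with Young, where the block removes 3 Young libraries and leaves fewer degrees of freedom. The Old-Control against Old comparison had 0 calls in every fit of all libraries or with 1 left out. The Acta2 value of Old-Control against Old turned to -0.03 under the block.

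Signs turned for some values that were not called with all libraries and TMM. Cdh3 in Old against Young was 0.17 with the surface epithelium score, 0.09 with the RPE score and 0.04 within the libraries without M, and in Old-OSK against Old-Control 0.12 with the RPE score. Foxc1 was -0.09 in Old against Young with the surface epithelium score and Cald1 0.22 in Old-OSK against Old-Control with the RPE score. In Old-Control against Old, leaving out single libraries gave -0.39 to 0.29 for Cdh3, -0.79 to 0.13 for Snai1 and -0.16 to 0.36 for Acta2. Snai1 and Twist1 rest on at most 48 counts per library, which limits what can be seen of them.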
